A study of Mus musculus with 52 samples.

Results

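The genes described here are the cell cycle cyclins, kinases and licensing factors on a mouse cDNA array, read in 7 embryonic stem (ES) cell lines. They were chosen by symbol alone: A, B, D and E cyclins (Ccna, Ccnb, Ccnd, Ccne), Cdk, Cdc and Plk genes with a number, Aurk and Bub genes, numbered Orc genes and Mcm2 to Mcm7. The rule found 64 of the 9030 genes with a symbol, carried by 87 probes, and 17 of the 64 had more than 1 probe. No measured value entered the choice. The 64 genes fall into 6 cyclins, 11 kinases that act in the cell cycle, 10 other kinases of the CDK family, 4 phosphatases (Cdc25a, Cdc25b, Cdc25c and Cdc14b), 11 licensing and origin factors and 4 genes of the anaphase-promoting complex and the spindle checkpoint. A further 18 match by name only, such as Cdc42 and its effectors, the kinase co-chaperone Cdc37 and the centrosomal Cdk5rap2. Ccnb1, Ccnd1, Ccne2, Cdc7, Bub1, Orc1, Orc2 and Orc4 were not analysed here.

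Cyclins are subunits that switch on cyclin-dependent kinases (CDKs): D cyclins with Cdk4 and Cdk6 and E cyclin with Cdk2 drive entry into DNA synthesis, A cyclin acts through synthesis, and A and B cyclins with Cdk1 drive mitosis. Replication origins are licensed in G1 when the origin recognition complex (Orc proteins) and Cdc6 load the Mcm2 to Mcm7 ring onto DNA, and Cdc45 later joins that ring to form the active helicase. Polo-like and Aurora kinases run spindle assembly and cell division, and Bub proteins hold back Cdc20, the activator of the anaphase-promoting complex, until chromosomes are attached. Mouse ES cells are known for a short G1 phase and for high cyclin E and CDK activity through most of the cycle.

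The lines, spelled as in the labels, were HM-1 and HM-1 NT, the lines #4 (B6), B6NT and B6PGA, and the lines PDCUMNT and ZFCUMNT. Per the series description, donor nuclei came from different cell sources. A pair with nuclei of cumulus cells, which surround the oocyte, was made by different cloning methods. Which of the other lines had donor nuclei is not assumed. The labels give no treatment, passage, sex or culture condition and leave the parts of the names (B6, NT, PGA, PD, ZF) unexplained, so what each stands for is not assumed. There were 52 hybridisations, 4 for each of 13 direct comparisons, and in each comparison the second-named line was in Cy5 on arrays 1 and 2 and in Cy3 on arrays 3 and 4. The protocol text of the labels also mentions organs and a pooled reference, which no channel label names, and the channel labels were followed. Nothing says whether the 4 arrays came from separate cultures, so p-values measure only the spread between arrays, which may be technical. The SEs and p-values of the main fits pool that spread over all comparisons, so they do not measure the spread of the 4 arrays of 1 comparison.

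Every value is a log2 ratio of the second-named line over the first-named line, read as Cy5 over Cy3. The numerator dye is not stated per the labels, so every sign could turn at once, and signs are given as positive or negative. Between 17620 and 20200 probes were measured on an array. A ratio of 2 lines gives no level, so the labelled cell type could not be checked by the level of its markers. Probes of a gene did not move together: the correlation over arrays between probes of the same gene had a mean of -0.002 over 20 probe pairs of the cell cycle genes and 0.047 over 3828 pairs of all genes. Arrays of opposite dye orientation, once turned, had rank correlations between -0.289 (HM-1 vs #4 (B6)) and 0.121 (HM-1 vs PDCUMNT) over the cell cycle genes, against -0.487 to 0.006 over all features, and a dye effect of each feature was fitted as its own term. Ratios left unturned are listed with the processing alternatives, where none of the 5 results that passed below did so. If the labelled orientations hold, a line difference cancels there, with 2 arrays in each orientation. The loss of these calls was therefore set largely by the design and checks none of the results.

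Over all 13 comparisons, 3 ratios of cell cycle genes passed the test: Plk1 was positive in HM-1 vs PDCUMNT, Cdc45 was negative in #4 (B6) vs B6PGA and Bub3 was positive in PDCUMNT vs ZFCUMNT. These are 3 of 802 gene and comparison pairs tested (0.374%), beside 0.532% over all features (limma, Benjamini-Hochberg adjusted p under 0.05). An unadjusted p under 0.05 was reached by 74 of the 802 pairs (9.23%), beside 7.79% over all features. The share of cell cycle genes that differed between lines was therefore near that of the array as a whole. The array holds bulk RNA, in which fewer cells in a phase of the cycle and less RNA per cell cannot be told apart.

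**Figure D1:**
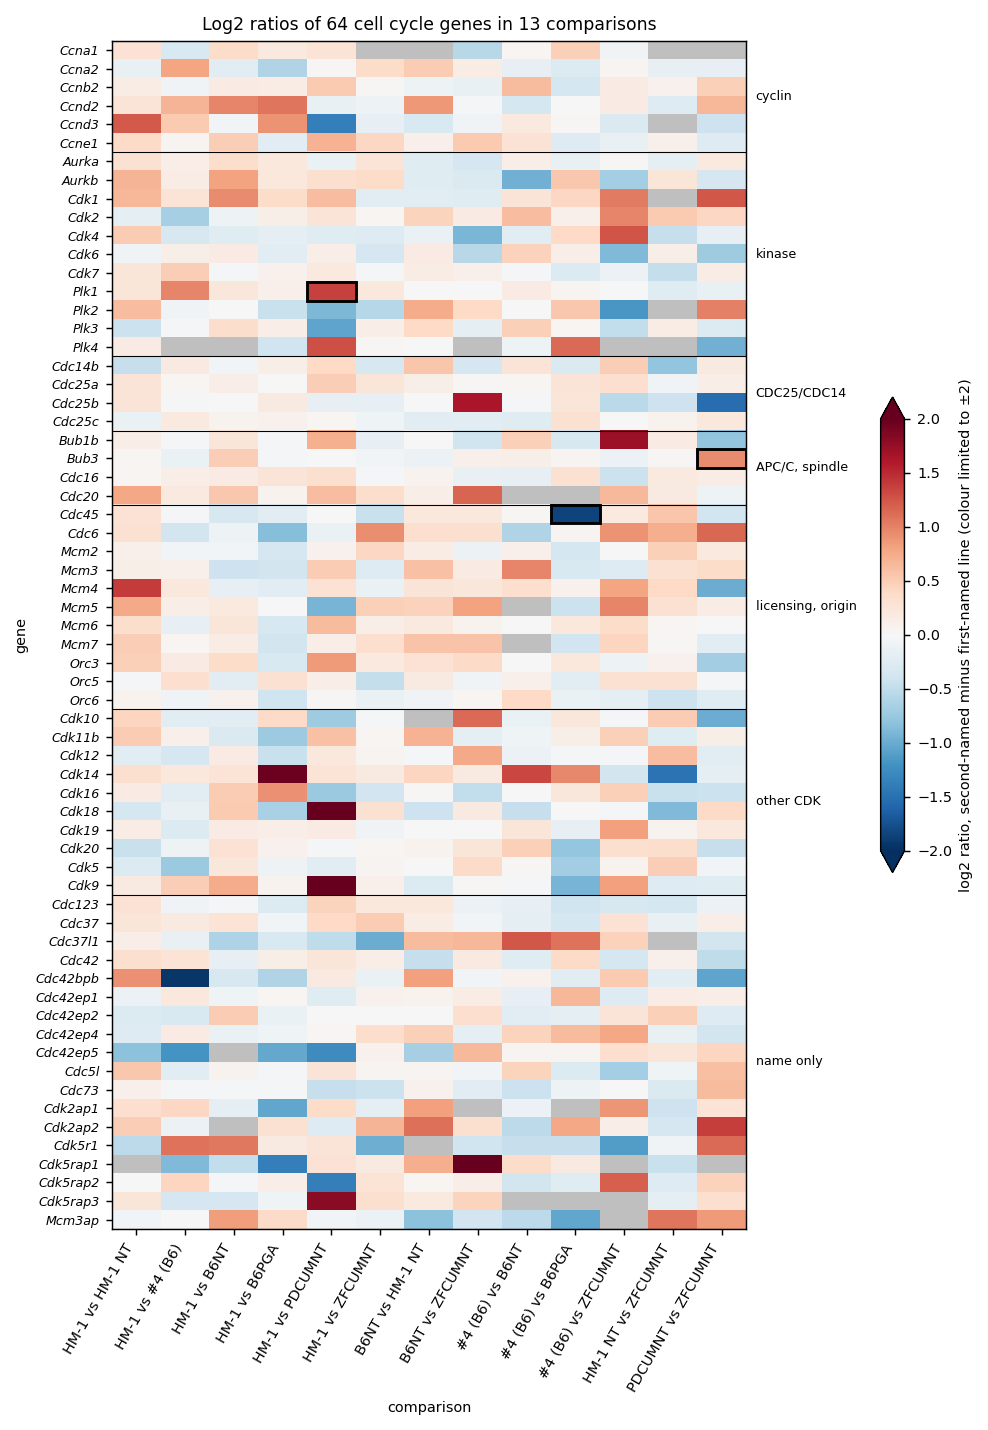
Fitted log2 ratios (second-named minus first-named line) of the 64 genes, 1 row each and grouped by role, in the 13 comparisons; colour is limited to ±2, grey cells were not tested and black frames mark an adjusted p under 0.05. The 3 framed cells are Plk1 in HM-1 vs PDCUMNT, Bub3 in PDCUMNT vs ZFCUMNT and Cdc45 in #4 (B6) vs B6PGA.

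Plk1 (chromosome 7) encodes polo-like kinase 1, which drives centrosome maturation, spindle assembly and cytokinesis. In HM-1 vs PDCUMNT its ratios were 0.644, 0.451, 3.263 and 1.109 on arrays 1 to 4. All 4 arrays were positive, and array 3 lay far above the others. The fitted ratio was 1.37 ± 0.33 (SE, n = 4 arrays), with a limma adjusted p of 0.025. Plk1 was the 1 of 64 cell cycle genes tested that passed there, beside 1.14% of all features. The call was lost without array 3 (0.83, adjusted p = 0.315), without the dye term (adjusted p = 0.074), with the constant top values kept (adjusted p = 0.874) and with the comparison fitted alone (adjusted p = 0.568).

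In the levels per line, fitted over all comparisons at once and given as the difference from the mean of the 7 lines, Plk1 ran from -0.43 in HM-1 to 0.54 in PDCUMNT, with the other 5 lines between -0.13 and 0.02. The moderated F test over the 7 lines gave an unadjusted p of 0.011 and an adjusted p of 0.160, which misses the threshold. The same difference read from that fit was 0.97, with an adjusted p of 0.029.

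Cdc45 (chromosome 16) encodes the factor that joins the loaded Mcm ring when an origin fires. In #4 (B6) vs B6PGA it read -1.049, -2.823 and -2.154 on arrays 1 to 3 and was not measured on array 4. Every measured array was negative by more than 1 log2 unit, that is, lower in B6PGA under the reading used. The fitted ratio was -1.85 ± 0.45 (SE, n = 3 arrays), with a limma adjusted p of 0.023, and Cdc45 was the 1 of 61 cell cycle genes tested that passed, beside 1.22% of all features. The call was lost without array 2 (-1.60, adjusted p = 0.166) and without array 3 (-1.42, adjusted p = 0.279), and it was also lost with array weights (adjusted p = 0.119), with arrays scaled to equal spread (adjusted p = 0.052), without the dye term (adjusted p = 0.065) and with the comparison fitted alone (adjusted p = 0.594). In HM-1 vs B6PGA, the other comparison with that line, Cdc45 read -0.114, -0.603, -0.289 and 0.069, with a fitted ratio of -0.23 ± 0.39. The B6PGA level over the whole fit was -0.75, and the difference from #4 (B6) read from it was -0.99 with an adjusted p of 0.235.

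Bub3 (chromosome 7) encodes a subunit of the mitotic checkpoint complex that binds unattached kinetochores. In PDCUMNT vs ZFCUMNT the mean of its probes was 0.704, 0.680, 0.411 and 1.976 on arrays 1 to 4. In comparisons such as HM-1 vs PDCUMNT and HM-1 vs HM-1 NT, arrays 1 and 2 of Bub3 were positive and arrays 3 and 4 negative, whereas here all 4 were positive. The fitted ratio was 0.94 ± 0.24 (SE, n = 4 arrays), the adjusted p from limma was 0.046, and Bub3 was the 1 of 62 cell cycle genes tested that passed, beside 0.763% of all features. The probes of Bub3 did not read alike: one gave 1.873, 0.940, 0.411 and -0.541, and the other gave -0.466, 0.421, no value on array 3, and 4.494. The high value of array 4 is therefore the mean of -0.541 and 4.494. The call was lost without array 4 (0.52, adjusted p = 0.335), and no single Bub3 probe passed. With the replicate number as a block the adjusted p was 0.056. The call was also lost with array medians subtracted (adjusted p = 0.104), arrays scaled to equal spread (0.244), array weights (0.250), no dye term (0.106), all 4 arrays required (0.051), small whole-number ratios left out (0.051), the comparison read from the fit over lines (0.200) or fitted alone (0.893).

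**Figure D2:**
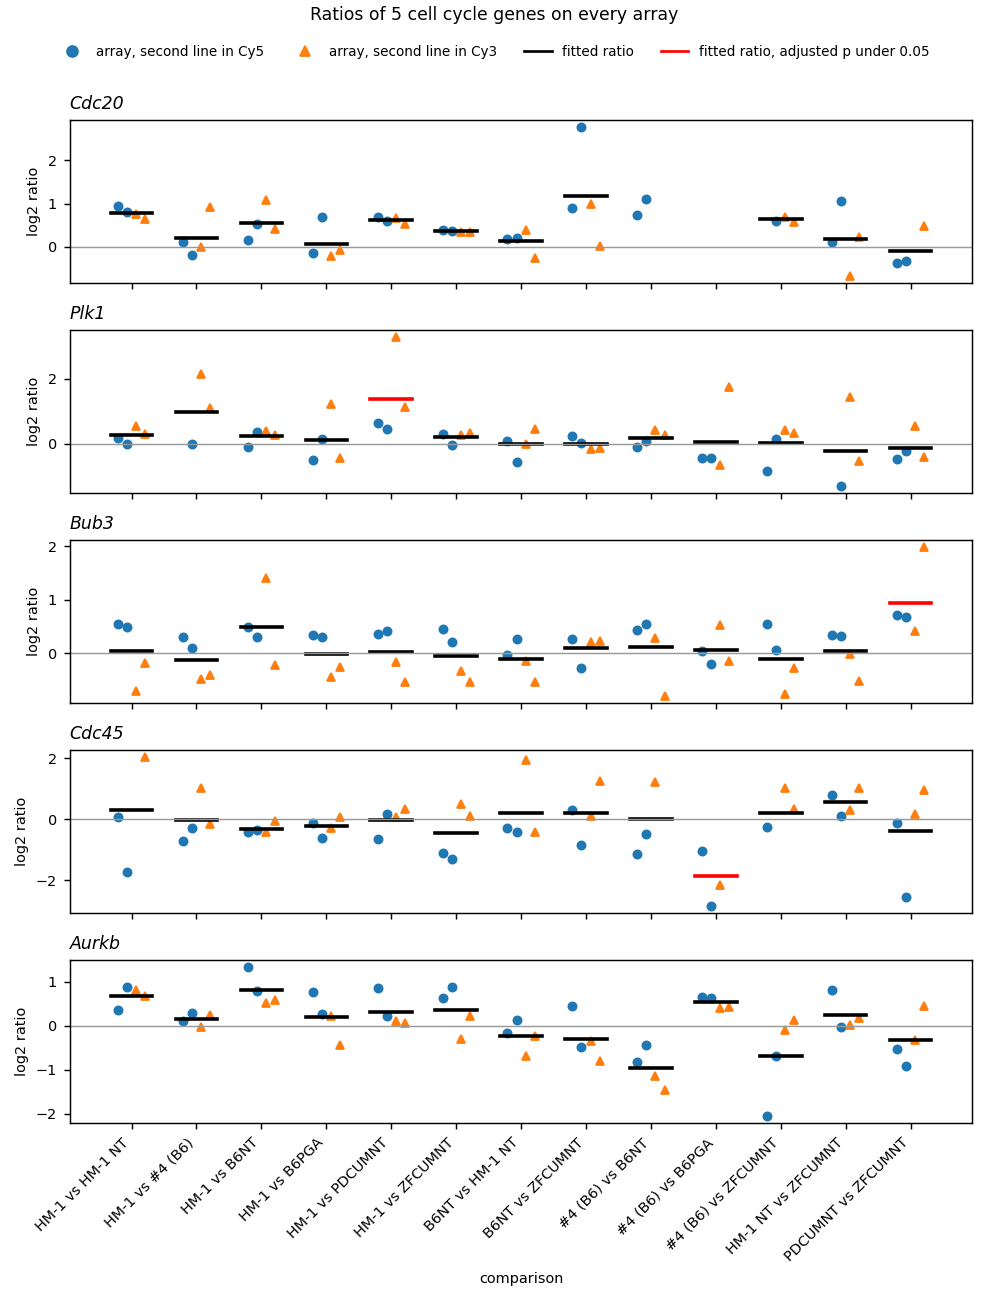
Log2 ratios of Cdc20, Plk1, Bub3, Cdc45 and Aurkb on every array (circles, second-named line in Cy5; triangles, in Cy3) in the 13 comparisons, with the fitted ratio as a bar, red where the adjusted p is under 0.05. Plk1 in HM-1 vs PDCUMNT has all 4 arrays positive with array 3 at 3.263, and Aurkb is negative on all arrays of #4 (B6) vs B6NT and positive on all arrays of HM-1 vs HM-1 NT.

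Cdc20 (chromosome 4) encodes the activator of the anaphase-promoting complex, the ubiquitin ligase that starts chromosome separation. It was the 1 of 62 cell cycle genes in the fit over lines that differed across the 7 lines (F = 4.93, limma adjusted p = 0.027), beside 3.27% of all features, and 12 of the 62 (19.4%) had an unadjusted p under 0.05 there, beside 15.4%. Relative to the mean of the lines, Cdc20 stood at -0.37 ± 0.10 (SE) in HM-1, -0.34 ± 0.18 in #4 (B6), -0.30 ± 0.27 in B6PGA, -0.06 ± 0.15 in B6NT, 0.25 ± 0.16 in HM-1 NT, 0.38 ± 0.20 in PDCUMNT and 0.44 ± 0.13 in ZFCUMNT. The ends of that order, ZFCUMNT and HM-1, differed by 0.80 (95% interval 0.45 to 1.15). Neighbours in the order did not differ beyond their error: ZFCUMNT minus PDCUMNT was 0.06 (-0.43 to 0.55), HM-1 NT minus B6NT was 0.30 (-0.11 to 0.71), and #4 (B6) minus HM-1 was 0.03 (-0.40 to 0.46).

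In 3 of the comparisons with HM-1, the 4 arrays of Cdc20 were close to each other. In HM-1 vs HM-1 NT they read 0.935, 0.807, 0.746 and 0.634, and in HM-1 vs PDCUMNT 0.688, 0.606, 0.659 and 0.530. In HM-1 vs ZFCUMNT they read 0.393, 0.372, 0.334 and 0.330. These comparisons share HM-1, and each has its arrays of both dye orientations on the positive side. None of these comparisons passed: the fitted ratios were 0.78 ± 0.27 (adjusted p = 0.353), 0.62 ± 0.27 (adjusted p = 0.347) and 0.36 ± 0.27 (adjusted p = 1). The error of 0.27 pools the spread of Cdc20 over all comparisons and is not that of the close arrays here.

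In B6NT vs ZFCUMNT, Cdc20 read 0.902, 2.762, 0.990 and 0.018, a fitted ratio of 1.17 ± 0.27 with an adjusted p of 0.078. Array 2 was the highest and array 4 lay near 0. The ratio was 0.64 without array 2 (adjusted p = 0.593) and 1.54 without array 4 (adjusted p = 0.019). Cdc20 was measured on 44 of the 52 arrays, on no array of #4 (B6) vs B6PGA and on 2 arrays of #4 (B6) vs B6NT (0.723 and 1.097). Its B6PGA level therefore rests on HM-1 vs B6PGA alone (-0.139, 0.681, -0.209 and -0.066), where the signs were mixed and array 2 lay apart. The call over the lines was lost when all arrays of HM-1 vs HM-1 NT (adjusted p = 0.141), HM-1 vs B6NT (0.063), HM-1 vs PDCUMNT (0.093) or #4 (B6) vs ZFCUMNT (0.069) were left out, and with the top values kept (0.265). It held in each of the fits that left out a single array.

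The stretches before the start sites of Cdc20, Plk1, Bub3 and Cdc45 are shown because mitotic genes are known to carry a CCAAT box (bound by NF-Y) and the CHR element TTTGAA close to the start, and S phase genes the E2F sites TTTGGCGC and TTTCCCGC. Each line gives the 100 bases upstream of the RefSeq start (build GRCm38.p6), 5′ to 3′ on the gene's strand, with matches to these letters on either strand in capitals. The stretches lie at chr4:118437344-118437443 (minus strand) for Cdc20, chr7:122159335-122159434 (plus) for Plk1, chr7:131560270-131560369 (plus) for the first listed start of Bub3 and chr16:18811973-18812072 (minus) for Cdc45.
Cdc20: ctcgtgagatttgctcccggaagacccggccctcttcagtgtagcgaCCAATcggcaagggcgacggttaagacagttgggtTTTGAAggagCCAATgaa
Plk1: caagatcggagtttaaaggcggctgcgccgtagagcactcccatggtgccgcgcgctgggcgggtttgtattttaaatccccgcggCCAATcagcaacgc
Bub3: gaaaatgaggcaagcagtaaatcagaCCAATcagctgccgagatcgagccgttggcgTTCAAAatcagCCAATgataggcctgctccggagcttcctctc
Cdc45: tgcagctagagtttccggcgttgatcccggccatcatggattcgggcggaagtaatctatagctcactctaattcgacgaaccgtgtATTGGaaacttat

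The stretches of Cdc20 and Bub3 hold 3 matches each, a TTTGAA (read on the minus strand in Bub3) and a pair of CCAAT, and those of Plk1 and Cdc45 hold 1 CCAAT each. The stretch before a second listed start of Bub3, at chr7:131560394-131560493 (plus), holds 0 matches. A promoter window of 300 bases, 250 before and 50 after the start, was found for 56 of the 64 genes. CCAAT was in 31 of the 56 (55.4%), beside 41.1% of 27025 genes in the table, and TTTGAA in 15 (26.8%), beside 20.2%. TTTGGCGC was in 4 (7.14%), beside 0.585%, and TTTCCCGC in 5 (8.93%), beside 1.24%; no motif contains another. A match describes the letters and is no measure of binding.

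Cyclins gave no call in any comparison. Ccne1, cyclin E1, was the next cell cycle gene after Cdc20 in the fit over lines, with an adjusted p of 0.058. It stood at -0.26 ± 0.08 (SE) in HM-1 and -0.40 ± 0.15 in B6PGA, and at 0.43 ± 0.14 in PDCUMNT and 0.17 ± 0.09 in ZFCUMNT. HM-1 vs PDCUMNT gave 1.315, 0.823, 0.053 and 0.606, all positive, with a fitted ratio of 0.70 ± 0.22 and an adjusted p of 0.110. The mitotic cyclin Ccnb2 stayed within -0.24 (B6PGA) and 0.25 (B6NT), and the S phase and mitotic cyclin Ccna2 within -0.37 (B6PGA) and 0.18 (#4 (B6)).

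The D cyclins, which pair with Cdk4 and Cdk6, had wide errors. Ccnd2 ran from -0.60 ± 0.30 in PDCUMNT to 0.46 ± 0.30 in B6PGA (adjusted p over lines = 0.361). Its ratio in HM-1 vs B6PGA was 1.07, from arrays of 0.204, -0.082, 3.807 and 0.352, so array 3 set most of it. The probes of Ccnd2 did not read alike there. The 3.807 is the mean of 1.697 and 5.917, and on array 4 the probes gave 1.611 and -0.907. Ccnd3 in HM-1 vs PDCUMNT read -0.041, -5.888, 0.259 and 0.170, and the negative ratio of -1.37 ± 0.67 (SE) came from array 2. Ccna1, the germ line A cyclin, was measured on 41 arrays and had the smallest F of the cyclins (adjusted p = 0.994).

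**Figure D3:**
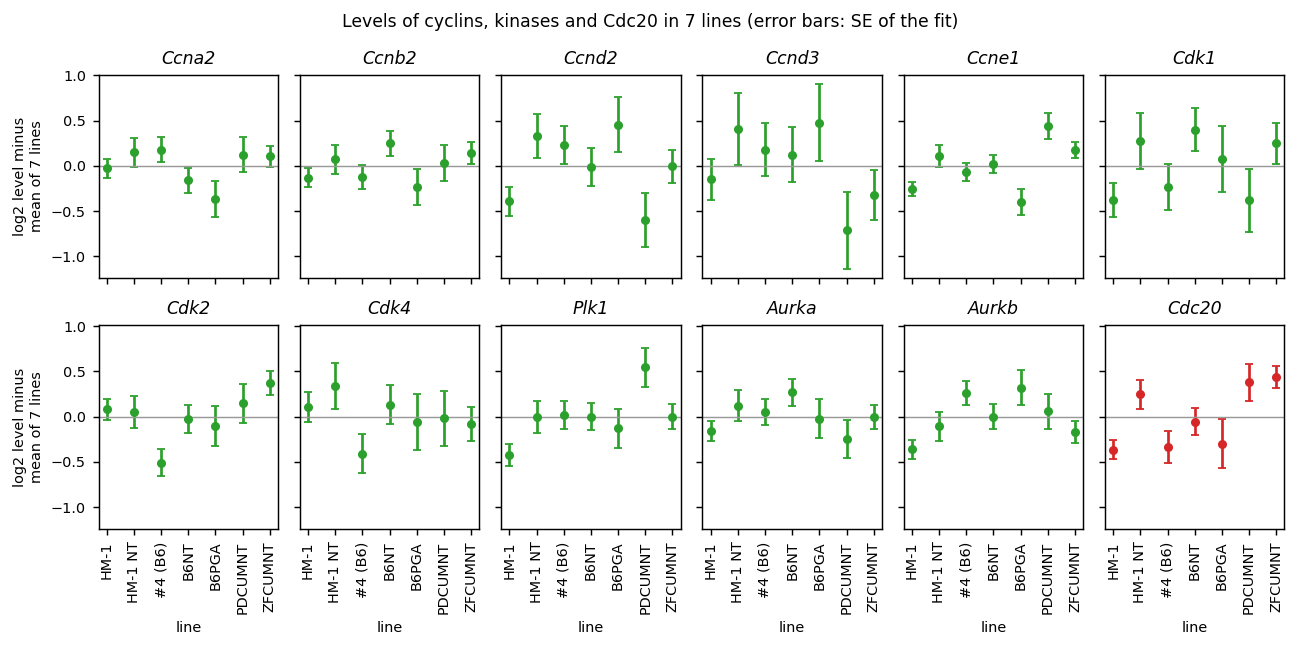
Fitted log2 levels of 5 cyclins, 6 kinases and Cdc20 in the 7 lines, as the difference from the mean of the lines, with error bars of 1 SE of the fit. Cdc20 (red) is the gene whose F test over the lines passed, from -0.37 in HM-1 to 0.44 in ZFCUMNT; Ccnd3 has the widest bars.

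Among the kinases, Aurkb (chromosome 11), the Aurora kinase of the chromosomal passenger complex that corrects chromosome attachment, had opposite signs in the comparisons of HM-1 with HM-1 NT and of #4 (B6) with B6NT. In HM-1 vs HM-1 NT it read 0.365, 0.887, 0.817 and 0.676. In #4 (B6) vs B6NT it read -0.821, -0.434, -1.137 and -1.457. The arrays of these comparisons do not overlap. The fitted ratios were 0.69 ± 0.25 (SE, adjusted p = 0.415) and -0.96 ± 0.25 (adjusted p = 0.109), so neither passed by itself.

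The difference of these Aurkb ratios was 1.65 ± 0.35 (SE), with a limma adjusted p of 0.021, and Aurkb was the only cell cycle gene for which this test of the difference passed, beside 0.197% of all features. Of the others only Mcm3 had an unadjusted p under 0.05 (0.033), which 5.18% of all features reached. The difference was called in 2 of the 8 fits that left out 1 array (from 1.51, highest adjusted p 0.123) and was not called without any of arrays 1, 3 and 4 of #4 (B6) vs B6NT or of arrays 2, 3 and 4 of HM-1 vs HM-1 NT. Aurkb was also positive on every array of HM-1 vs B6NT (1.327, 0.788, 0.508 and 0.597; 0.81 ± 0.25, adjusted p = 0.251). The test of direct against indirect values of Aurkb gave an unadjusted p of 0.00070, but its adjusted p of 0.156 missed the threshold. An unadjusted p under 0.05 was reached in this test by 4 of the 62 genes and 7.39% of all features. The levels of Aurkb per line, from -0.36 in HM-1 to 0.32 in B6PGA, fold its direct and indirect ratios together.

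The other kinases of the cycle gave no call. Cdk2, the partner of cyclins E and A, was lowest in #4 (B6) (-0.51 ± 0.15, SE) and highest in ZFCUMNT (0.37 ± 0.13), with an adjusted p over the lines of 0.199. Cdk2 in #4 (B6) vs ZFCUMNT read 2.127 and 2.111 with ZFCUMNT in Cy5 and -0.163 and -0.172 with it in Cy3, so the orientations did not overlap. Cdk4, the partner of D cyclins, was also lowest in #4 (B6) at -0.41 ± 0.22, and in that comparison it read 2.767, 1.754, 1.068 and -0.566 (adjusted p = 0.183). Cdk1, the mitotic kinase, ran from -0.38 in HM-1 and in PDCUMNT to 0.40 in B6NT with an adjusted p of 0.505. Aurka, the Aurora kinase of the spindle poles, stayed between -0.25 in PDCUMNT and 0.27 in B6NT.

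Cdk7, which activates other CDKs and is part of the transcription factor TFIIH, had small errors. It read 0.439, 0.719, 0.773 and 0.060 in HM-1 vs #4 (B6), a ratio of 0.50 ± 0.18 (SE, adjusted p = 0.584), and -0.47 ± 0.18 in HM-1 NT vs ZFCUMNT (adjusted p = 0.357). Plk4, the kinase of centriole duplication, was measured on 36 arrays, too few for the fit over lines, as was the name match Cdk5rap1 with 34. Among the CDKs outside the cycle, Cdk9, the transcription elongation kinase, read 0.792, 0.717, 2.435 and 5.279 in HM-1 vs PDCUMNT (2.31 ± 0.70, adjusted p = 0.098). Cdk14 read 3.327, -0.258, 3.950 and 0.816 in HM-1 vs B6PGA (1.96 ± 0.64, adjusted p = 0.239). All 4 arrays of Cdk9 were positive, and array 2 of Cdk14 was negative. In both genes most of the size of the ratio came from a pair of arrays above 2 log2 units.

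The Cdc25 phosphatases, which remove inhibitory phosphates from CDKs, gave no call either. Cdc25b had the largest ratios, 1.63 ± 0.50 (SE) in B6NT vs ZFCUMNT (1.523, 4.040, 0.587 and 0.389; adjusted p = 0.312) and -1.52 ± 0.50 in PDCUMNT vs ZFCUMNT (-1.071, -5.351, -0.521 and 0.861; adjusted p = 0.138). Array 2 was the most extreme in each. Without array 2 these ratios were 0.80 (adjusted p = 0.999) and -0.22 (adjusted p = 0.955). Without array 4, which had the opposite sign, the ratio in PDCUMNT vs ZFCUMNT was -2.33 with an adjusted p of 0.014. Cdc25a stayed between -0.18 and 0.16 over the lines and Cdc25c between -0.15 and 0.22.

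The spindle checkpoint kinase Bub1b read, in #4 (B6) vs ZFCUMNT, 1.546, 4.608, 0.506 and 0.159, a fitted ratio of 1.70 ± 0.45 (SE) with an adjusted p of 0.054. All arrays were positive, and array 2 was far above the others. None of the 60 cell cycle genes tested passed there, beside 0.935% of all features. Without array 2 the Bub1b ratio was 0.87 (adjusted p = 0.527). Without array 3 or array 4, Bub1b passed (adjusted p = 0.035 and 0.024), and the count of calls was then 3 and 2.

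The licensing and origin factors held Cdc45 as their 1 call. Relative to the mean of the lines, 10 of the 11 were below it in B6PGA (90.9%, beside 50.98% of all features), with a median of -0.33, and all of Mcm2 to Mcm7 lay between -0.44 and -0.24 there. The median SE of such a level was 0.25, and the largest of these differences was that of Cdc45, -0.75. B6PGA was the lowest of the 7 lines for 6 of the 11. In HM-1 NT 10 of the 11 were above the mean (median 0.17), in PDCUMNT 9 (median 0.15) and in ZFCUMNT 9 (median 0.14), where 52.5%, 41.3% and 58.0% of all features were above it. The direct ratios did not follow the order of these medians. In HM-1 NT vs ZFCUMNT 10 of the 11 were positive, with a median of 0.31 beside -0.001 over all features. The median was positive on every array there, and none of the 11 passed. Orc5 was nearly level, between -0.08 and 0.07.

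B6PGA had 8 arrays. In HM-1 vs B6PGA 1 of 11 licensing factors was positive, the median ratio was -0.32 beside -0.04 over all features, and the median on arrays 1 to 4 was -0.322, -0.10, -0.554 and -0.458. All 4 arrays had a negative median. Cdc6, the loader of the Mcm ring, read -0.598, -1.235, -0.452 and -1.149, and Mcm3 -0.322, -0.113, -0.554 and -0.458. Neither passed (adjusted p = 0.945 and 1). The probes of Cdc6 did not read alike. Probe 1 gave -0.193, 0.239, -0.452 and -1.149, and probe 2 gave -1.002 and -2.708 on arrays 1 and 2. Arrays 3 and 4 of Cdc6 rest on probe 1 alone, and the -1.235 of array 2 is the mean of 0.239 and -2.708. In #4 (B6) vs B6PGA 7 of 11 were negative, with array medians of -0.153, -0.205, 0.058 and -0.315, so array 3 did not share the sign.

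Markers of fibroblasts or feeder cells moved with B6PGA in the opposite direction. In HM-1 vs B6PGA 18 of 18 tested were positive, with a median of 1.08 (array medians 0.806 to 1.235), and 7 passed, among them Col1a1, Col3a1, Lox and Vim. In #4 (B6) vs B6PGA 10 of 16 were positive, with a median of 0.32 (array medians 0.081 to 0.367), and Lox passed. The levels of these markers over the lines had a median of 0.45 in B6PGA, the highest of the 7 lines, and of -0.29 in HM-1. A level at or near 0 of any marker cannot be read from ratios. ES cell markers were positive for 9 of 16 in HM-1 vs B6PGA, with a median of 0.30, and Zfp42 was called negative. In #4 (B6) vs B6PGA they were positive for 10 of 16, with a median of 0.295, and Klf4, Dppa5a and Rif1 were called positive. The part of these cell types in the ratios of the licensing factors was not tested.

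The licensing factors of HM-1 vs HM-1 NT were positive for 10 of 11, with a median of 0.31 and array medians of 0.346, -0.198, 0.365 and 0.429, so array 2 had the opposite sign. All of Mcm2 to Mcm7 were positive, from 0.10 (Mcm2) to 1.39 (Mcm4). Mcm5 read 0.760, 1.226, 0.760 and 0.299 and Mcm6 0.500, 0.174, 0.118 and 0.601, each positive on all arrays but with an adjusted p of 1. Before turning, the array 4 value of Mcm5 was -0.299, which is what a raw ratio of 1 to 1 gives on that array. It is therefore weak evidence of a positive ratio. Of all Mcm5 values 13.64% lay at small whole-number ratios, where no array exceeded 7.78%. Mcm4 read -0.072, -0.475, 4.782 and 1.334, so its 1.39 ± 0.42 (SE, adjusted p = 0.201) rests on arrays 3 and 4, and without array 3 the ratio was 0.32. It passed without array 2 (1.94, adjusted p = 0.039). Fibroblast markers were positive for 13 of 18 in this comparison, with a median of 0.37, and ES cell markers for 12 of 16, with a median of 0.20; their part was not tested.

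Mcm3, a subunit of the Mcm ring, had arrays of 1 sign in a pair of comparisons with B6NT. In #4 (B6) vs B6NT it read 0.854, 0.955, 1.323 and 0.744, a ratio of 0.97 ± 0.27 (SE, adjusted p = 0.178), and in B6NT vs HM-1 NT 0.429, 0.461, 0.739 and 0.730 (0.59 ± 0.27, adjusted p = 0.448). All 8 arrays were positive. The test of direct against indirect values of Mcm3 gave an unadjusted p of 0.0022, but its adjusted p of 0.258 missed the threshold. The levels of Mcm3 over the lines spanned only -0.37 to 0.19 (adjusted p = 0.855). Cdc6 had the highest licensing level of any line, 0.75 ± 0.19 in ZFCUMNT, and Mcm6 ran from -0.25 in #4 (B6) to 0.33 in PDCUMNT. Their adjusted p over lines was 0.202 and 0.306. The probes of Cdc6 correlated at 0.055 over the arrays. In HM-1 vs ZFCUMNT probe 1 had a mean of 0.026, and probe 2 a mean of 4.062 from arrays 1 and 3 only. In #4 (B6) vs ZFCUMNT the probe means were 1.133 and 0.668.

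**Figure D4:**
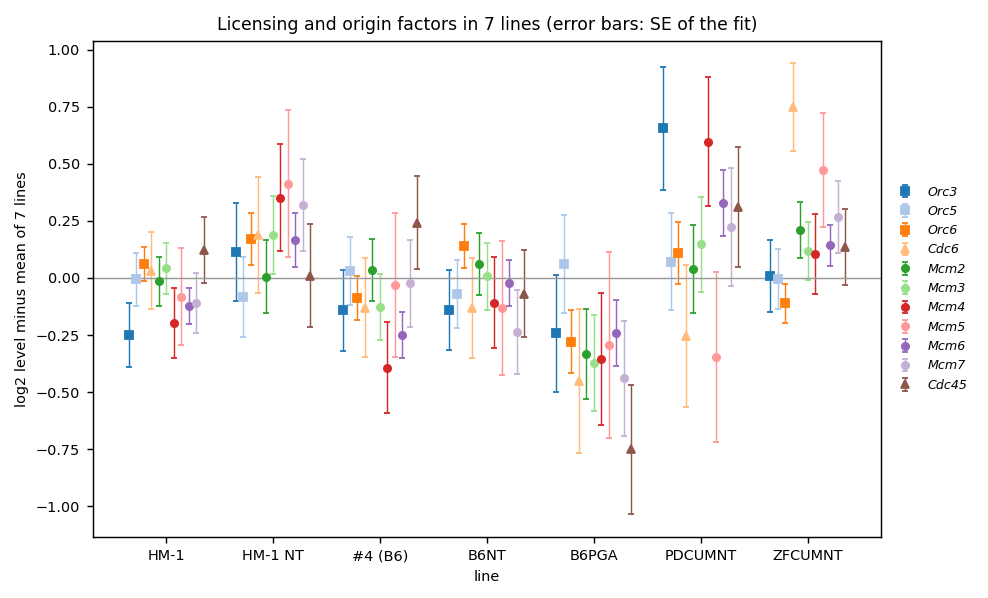
Fitted log2 levels of the 11 licensing and origin factors in the 7 lines, as the difference from the mean of the lines, with error bars of 1 SE of the fit; squares are Orc genes, circles Mcm genes and triangles Cdc6 and Cdc45. In B6PGA 10 of the 11 lie below 0, and in HM-1 NT 10 lie above it.

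Taking the 64 genes as a group, HM-1 vs HM-1 NT had 45 of 63 tested positive (71.4%, beside 44.8% of all features), with a median of 0.24 beside -0.05. The median of the genes was 0.222, 0.096, 0.183 and 0.034 on arrays 1 to 4, where that of all features was 0.052, 0.066, -0.119 and -0.080. The median of the genes was above that of all features on each of the 4 arrays. In HM-1 vs PDCUMNT 42 of 64 were positive (65.6%, beside 42.6%), with a median of 0.17 beside -0.08 and array medians of 0.355, 0.267, 0.151 and 0.042. B6NT vs HM-1 NT had 43 of 61 positive (70.5%, beside 51.1%) with a median of 0.11 beside 0.01. Fibroblast markers were positive there for 14 of 17, with a median of 0.44, and ES cell markers for 10 of 16, with a median of 0.27. In HM-1 vs PDCUMNT fibroblast markers were positive for 8 of 18, with a median of -0.026. ES cell markers were positive in HM-1 vs PDCUMNT for 9 of 16, with a median of 0.054. The part of these cell types was not tested. The comparisons with HM-1 share that line, and the genes share arrays, so these counts carry no test.

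Without the 18 name matches 35 of 46 genes were positive (median 0.25) when HM-1 NT was set against HM-1, and 32 of 46 (median 0.18) in HM-1 vs PDCUMNT. HM-1 vs PDCUMNT also had the most genes with an unadjusted p under 0.05, 15 of 64 (23.4%, beside 11.1% of all features): positive for Plk1, Plk4, Ccne1, Cdc20, Cdc25a, Mcm6, Cdk9, Cdk18, Cdc123 and Cdk5rap3 and negative for Ccnd3, Plk3, Cdk16, Cdc42ep5 and Cdk5rap2. Mcm6 read 1.0, 0.575, 0.431 and 0.554 (0.64 ± 0.23, SE, adjusted p = 0.175). Cdk5rap2, a centrosome protein that shares only its name with the kinases, read -0.548, -0.650, -2.793 and -1.500 (-1.37 ± 0.38, adjusted p = 0.059).

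**Figure D5:**
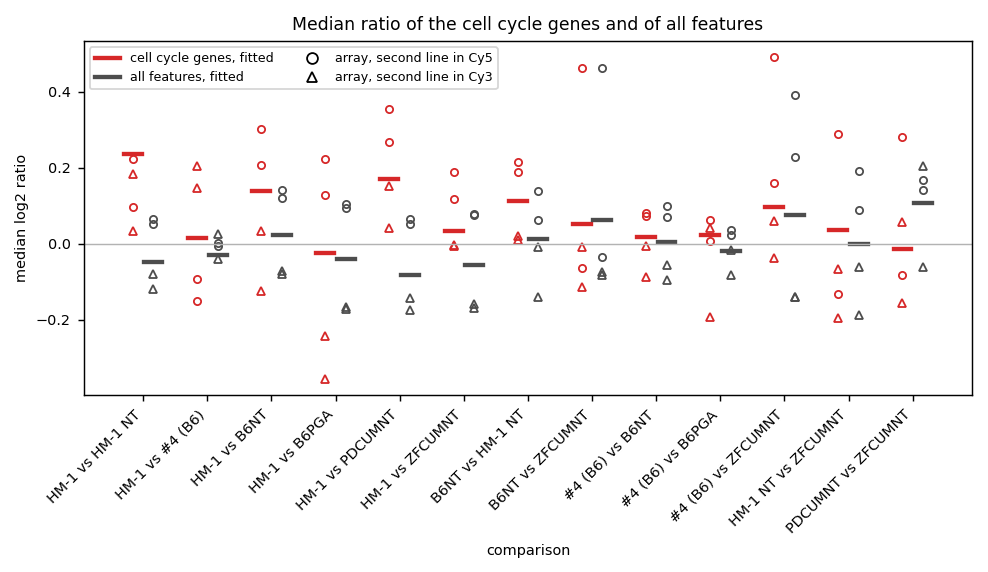
Median log2 ratio of the cell cycle genes (red) and of all features (grey) in the 13 comparisons; bars are medians of the fitted ratios and open symbols medians on single arrays (circles, second-named line in Cy5; triangles, in Cy3). The red bar lies above the grey one by the largest steps in HM-1 vs HM-1 NT (0.24 beside -0.05) and HM-1 vs PDCUMNT (0.17 beside -0.08).

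In the other comparisons with HM-1 none of the genes passed. The count was 0 of 63 in HM-1 vs HM-1 NT, beside 0.254% of all features, with 3 at an unadjusted p under 0.05 (6.41% of all features reached that). HM-1 vs #4 (B6) gave 0 of 63 beside 0.219%, with 6 unadjusted (all features 3.91%). HM-1 vs B6NT gave 0 of 61 beside 0.17%, with 4 unadjusted (all features 5.21%). At such shares less than 1 call falls to a group of 60 genes. HM-1 vs B6PGA gave 0 of 64 beside 0.494%, with 7 unadjusted (all features 6.66%), and HM-1 vs ZFCUMNT 0 of 63 beside 0.101%, with 1 unadjusted (all features 4.82%).

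Of the comparisons without HM-1, B6NT vs HM-1 NT gave 0 of 61 in limma beside 1.04% of all features, with 2 at an unadjusted p under 0.05, which is 3.28% of the genes beside 9.87% of all features. B6NT vs ZFCUMNT gave 0 of 62 beside 0.124%, with 6 unadjusted (all features 5.21%), and #4 (B6) vs B6NT 0 of 60 beside 0.245%, with 5 unadjusted (all features 4.5%). HM-1 NT vs ZFCUMNT gave 0 of 58 beside 0.292%, with 4 unadjusted (all features 8.71%). Unadjusted counts were 9 in #4 (B6) vs ZFCUMNT (all features 13.6%), 7 in #4 (B6) vs B6PGA (10.2%) and 5 in PDCUMNT vs ZFCUMNT (11.8%). The median SE of a cell cycle gene's ratio was 0.377 when HM-1 NT was set against HM-1, and the smallest of the 3 cell cycle ratios that passed was the 0.94 of Bub3.

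Pairs of the 64 genes did not vary together over the arrays more than other genes. The mean correlation was 0.025 over 1870 pairs, beside 0.027 over all pairs of named genes, and 0.079 over the 15 pairs of Mcm2 to Mcm7, whose proteins form 1 ring. The points share arrays and dyes, so these are descriptions. With probes of the same gene correlating at -0.002, a weak correlation between genes shows little here.

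Genes around the cycle that the symbol rule left out were read from lists. Of 7 CDK inhibitors 5 were on the array, and Cdkn2c, an inhibitor of Cdk4 and Cdk6, was called negative in #4 (B6) vs B6NT (-2.44 ± 0.46, SE, adjusted p = 0.005), 1 of 63 pairs tested. Of 31 replication genes 20 were present, and Pold1, the catalytic subunit of DNA polymerase delta, was called negative in #4 (B6) vs B6PGA (-1.93 ± 0.31, adjusted p = 0.000191), 1 of 249 pairs. Cdc45 was called negative in the same comparison, but the 20 replication genes there were 10 positive and 10 negative, with a median of 0.06. Pold1 and Rrm2, a subunit of ribonucleotide reductase, differed over the lines (adjusted p = 0.025 and 0.042), 2 of 19 tested. Over all features 0.532% of pairs passed, and 3.27% differed over the lines.

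Of 24 mitotic and anaphase-promoting complex genes 19 were present, and Anapc5 was called positive in #4 (B6) vs ZFCUMNT (1.05 ± 0.25, SE, limma adjusted p = 0.023), 1 of 225 pairs. Of 12 checkpoint genes 10 were present, and Rad17, a loader of the DNA damage clamp, was called positive in B6NT vs ZFCUMNT (1.75 ± 0.35, adjusted p = 0.021), 1 of 122 pairs. Of 13 E2F and pocket protein genes 9 were present, and none of 108 pairs passed. The replication genes had a median level of -0.14 in B6PGA and 0.15 in HM-1 NT, beside -0.33 and 0.17 for the licensing factors. In PDCUMNT they stood at -0.12 beside 0.15, the opposite sign, and in #4 (B6) at -0.13 beside -0.09.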

How the data were processed

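Values came from the authors' deposited table of log2 ratios, 1 column for each of the 52 arrays and 20794 probes. Log base 2 was read from the values. The scanner, image analysis, background correction and normalization are not given in the sources used here. Array medians ran from -0.209 to 0.469, so they had not been set to 0. The values of each array were nonetheless shifted by a constant of its own, from -0.893 to 0.741, as read from the top value described below. Per the labels, total RNA was labelled with Cy3 or Cy5 in 2 orientations per comparison, and ratios were turned by these labels. On each array 20 to 174 probes shared 1 top value (a ratio limited to 100000); they were left out as unmeasured, which was decided once the values had been seen. Symbols came from the platform annotation (12771 probes) and probes were averaged per gene, giving 17053 features with unnamed probes kept singly.

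The 13 comparisons were fitted together in limma 3.58.1 (lmFit, then eBayes, in R 4.3.3), each comparison having its own coefficient and each feature its own dye term. A feature was tested where at least 3 of 4 arrays measured it, in both orientations. P-values were adjusted by Benjamini-Hochberg over all features of a comparison, with a threshold of 0.05. Levels per line came from a second fit with 1 level per line and the dye term, for features measured on at least 39 arrays (62 of the 64 genes), tested by a moderated F test; direct against indirect values were tested by the added fit of the comparison terms. The difference between HM-1 vs HM-1 NT and #4 (B6) vs B6NT was a contrast of the first fit. Errors are SEs of these fits, with the spread of a feature pooled over all its arrays. The scripts were tested on simulated data. No slide or scan date was used.

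The genes, the pathway and marker lists and the motifs were chosen with earlier results of these data known. Named are genes that passed, the 2 with the largest moderated statistic in each comparison, and the canonical cyclins, kinases, phosphatases, Cdc20, licensing factors and checkpoint genes. Alternatives were the shared top values kept, array medians subtracted, arrays scaled to equal spread, array weights, no dye term, ratios unturned, all 4 arrays measured, no filter, a replicate block, probes tested singly, each comparison alone or read from the fit over lines, and each array left out. Promoter sequences are from RefSeq.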

Additional observations from a re-analysis of the deposited data

Results flagged for a closer look

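Aurkb differed between the comparison of HM-1 with HM-1 NT and that of #4 (B6) with B6NT by 1.65 ± 0.35 log2 units (SE) by a test of the difference itself (limma adjusted p = 0.021). Every array of the former was positive and every array of the latter negative.

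Cdc42ep4, an effector of the GTPase Cdc42 that matches the symbol rule by name only, had 1 array apart from the others in #4 (B6) vs ZFCUMNT. Array 2 read 1.39, where the other arrays read 0.510, 0.524 and 0.660, and the gap exceeded Dixon's 95% critical value for 4 values. By the same measure array 2 of Cdc20 in HM-1 vs B6PGA (0.681), array 3 of Ccnd2 in HM-1 vs B6PGA (3.807) and array 2 of Ccnd3 in HM-1 vs PDCUMNT (-5.888) lay apart. So did array 2 in the median of the licensing factors in HM-1 vs HM-1 NT (-0.198).

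The 57 groups of 4 examined were the array values of the named genes, those printed for other genes and for the licensing factors, and the array medians of the genes in the 13 comparisons; 5 had an array apart. Over all 722 pairs of a cell cycle gene and a comparison with 4 arrays, 42 did (5.82%), where chance gives about 1 in 20.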

How the results depend on the processing

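Without a filter no count or direction changed, and of the alternatives run only the unturned ratios reversed a named value. The replicate block left 0 calls in PDCUMNT vs ZFCUMNT and changed no other call. Averaged over all comparisons, same-numbered arrays did not deviate together (mean residual correlation -0.036 to -0.030, as for different numbers). That average mixes comparisons that share a line with others that do not, so a pairing by number in some of them could be missed. In PDCUMNT vs ZFCUMNT, 0 calls also remained with all 4 arrays required, array medians subtracted, array weights, arrays scaled to equal spread, no dye term, probes singly, small whole-number ratios left out (chosen after seeing the data), the comparison alone, read from the network of lines, and unturned. #4 (B6) vs B6PGA had 0 with all 4 arrays required, weights, equal spread, no dye term, alone, network and unturned, and 2 with probes singly. HM-1 vs PDCUMNT had 0 with top values kept, no dye term, alone and unturned, and 2 from the network. #4 (B6) vs ZFCUMNT had 1 with all 4 arrays required, top values kept or small ratios left out, and 2 unturned. #4 (B6) vs B6NT had 2 with weights or equal spread, and B6NT vs ZFCUMNT 2 with equal spread. HM-1 vs B6NT had 1 with weights or equal spread, HM-1 vs B6PGA 1 with equal spread or unturned, HM-1 vs ZFCUMNT 1 from the network, HM-1 NT vs ZFCUMNT 1 with top values kept, and HM-1 vs HM-1 NT and HM-1 vs #4 (B6) 3 each unturned. Across the lines the count was 2 with all arrays required or medians subtracted, 4 with weights and 7 unturned.

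Unturned, the median of the genes was -0.24 in HM-1 vs #4 (B6), -0.011 for HM-1 vs HM-1 NT, and 0.13 for HM-1 vs ZFCUMNT. Reversed values were Aurkb 0.33 (#4 (B6) vs B6NT) and -0.40 (the difference), Bub3 -0.25, Plk1 -0.82, Cdk5rap2 0.77, Mcm4 -1.67, Mcm3 -0.064 (#4 (B6) vs B6NT) and -0.14 (B6NT vs HM-1 NT), Cdc14b 0.042, Cdk7 0.17 (HM-1 NT vs ZFCUMNT), Cdc37l1 0.31, Cdc42ep1 -0.60, Cdk11b -0.25 and Cdk14 -0.42. With all 4 arrays measured, an unturned value is the contrast between the 2 orientations. A line difference cancels from it if the labelled orientations hold, so such values do not check the turned ones. What made the orientations differ was not tested.

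Leaving out 1 array gave 0 to 1 calls in HM-1 vs HM-1 NT, in B6NT vs ZFCUMNT, #4 (B6) vs B6PGA and the difference, 0 to 2 in HM-1 vs PDCUMNT, 0 to 3 in #4 (B6) vs ZFCUMNT and over the lines (also leaving out whole comparisons), and 1 in each fit of PDCUMNT vs ZFCUMNT. Without array 4 of PDCUMNT vs ZFCUMNT that call was Cdc25b in place of Bub3. With 1 array left out, the gene medians ranged from -0.142 to 0.021 in #4 (B6) vs B6PGA. The 4 arrays per comparison, probes that disagree, and the 1.93% to 7.78% of values at small whole-number ratios limit what these ratios can show.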

Other observations

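Markers of other lineages varied over the lines as well. The 3 primitive endoderm markers in the fit over lines had median levels from -0.32 in #4 (B6) to 0.27 in B6PGA, and the 3 trophectoderm markers from -0.27 in B6NT to 0.21 in HM-1 NT. Krt8, a keratin of trophectoderm and other epithelia, was called positive in B6NT vs HM-1 NT (2.27 ± 0.43, SE, limma adjusted p = 0.0028), and Cdx2, a trophectoderm transcription factor, in #4 (B6) vs B6PGA (1.13 ± 0.28, adjusted p = 0.024). The 3 trophectoderm markers tested were all positive in B6NT vs HM-1 NT, with a median of 0.51. In #4 (B6) vs B6PGA they were 2 positive and 1 negative, with a median of 0.065. Ttr, made by visceral endoderm, was called positive in HM-1 vs B6PGA (1.32 ± 0.25, adjusted p = 0.0035), while the other 3 primitive endoderm markers tested there were negative and the median of the 4 was -0.29. The 16 ES cell markers had median levels from -0.34 in #4 (B6) to 0.15 in PDCUMNT.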
